A study of Mus musculus with 3 samples.

Results

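HOPS and retromer are the protein complexes examined here, through the transcripts of their 10 subunit genes among the 17946 genes of the deposited table. The members were taken by gene symbol, 6 for HOPS (Vps39, Vps41, Vps11, Vps16, Vps18 and Vps33a) and 4 for retromer (Vps29, Vps35, Vps26a and Vps26b), and each symbol matched 1 gene. The complexes were chosen by the deposited values themselves, because Vps39 and Vps29 differed between the 3 libraries while their complex partners could serve as the comparison, so the values of these genes are a description and support no claim that they stand apart.

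HOPS (homotypic fusion and protein sorting) is a tether that brings late endosomes, autophagosomes and lysosomes together before they fuse. Vps11, Vps16, Vps18 and Vps33a form a core that HOPS shares with the early endosomal tether CORVET, whereas Vps39 and Vps41 sit at the ends of HOPS and bind the small GTPases of the membranes to be joined. Retromer is a coat of Vps35, Vps29 and a Vps26 protein that takes cargo receptors out of endosomes before they reach the lysosome, and Vps26a and Vps26b are paralogs that take the same place in it. Round spermatids, the haploid cells that follow meiosis, use endosomal and Golgi traffic to build the acrosome, an organelle with lysosome-like features.

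Round spermatids had been sorted by Hoechst 33342 fluorescence from testes of 28-day-old male C57BL/6 mice and profiled by mRNA sequencing, with 1 library each from MiwiR371W, MiwiΔIns and wild-type mice. MiwiR371W and MiwiΔIns are alleles of Miwi (Piwil1), the gene of a PIWI protein and piRNA partner of male germ cells. The labels give neither the zygosity of the alleles nor the number of animals behind a library. With 1 library per genotype there is no replicate check, so no test was made and each difference describes these libraries.

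Levels are deposited values that the authors had normalised for transcript length as well as library size, so genes can be set side by side. Piwil1 was at 23.5 in MiwiR371W, 23.2 in MiwiΔIns and 20.3 in wild type, which does not show which allele was transcribed. All 12 round spermatid markers were measured, with summed values of 18290 in MiwiR371W, 22606 in MiwiΔIns and 16327 in wild type. Most of each sum came from Prm1, Prm2, Tnp1 and Tnp2, which encode the protamines and transition proteins that package sperm DNA. Gene by gene, 5 of the 12 had a positive log2 ratio in MiwiR371W over wild type (median −0.28), 10 in MiwiΔIns over wild type (median 0.33) and 1 in MiwiR371W over MiwiΔIns (median −0.42). Spermatocyte markers summed to 1406 in MiwiR371W, 1234 in MiwiΔIns and 1454 in wild type. Most of this was the heat shock protein gene Hspa2, at 855 in MiwiR371W, 664 in MiwiΔIns and 958 in wild type. Unlike the sums, 7 of the 10 spermatocyte markers had a positive log2 ratio to wild type in each mutant library, with medians of 0.12 in MiwiR371W and 0.14 in MiwiΔIns. Spermatogonial, Sertoli, Leydig and macrophage markers summed to between 11.4 and 44.5 in any library. The 8 peritubular and endothelial markers summed to 174 in MiwiR371W, 212 in MiwiΔIns and 263.5 in wild type. Most of this was the smooth muscle actin gene Actg2, at 147 in MiwiR371W, 205 in MiwiΔIns and 257 in wild type. Unlike the sums, 7 of the 8 had a positive log2 ratio in MiwiR371W over wild type (median 0.55). In MiwiΔIns over wild type 2 were positive (median −0.07), and in MiwiR371W over MiwiΔIns 6 (median 0.85). Within that list Igfbp7, Acta2 and Vim were higher in MiwiR371W than in both other libraries, with Igfbp7 at 10.99 in MiwiR371W, 1.90 in MiwiΔIns and 2.08 in wild type. Their part in the MiwiR371W values below was not tested.

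Upstream sequence is shown for members whose promoters carried a shared motif and for Vps29, a gene on which the results turn. RefSeq promoters (GRCm38.p6) were matched for 7 of the 10 members, with 2 start sites for Vps26a, and Vps39, Vps11 and Vps35 were not matched. The palindrome CACGTG, the core of the E-box bound by lysosomal gene regulators such as TFEB, lay within 250 bases upstream of a start in 3 of the 7 members, Vps16, Vps33a and Vps26a, and in 6.02% of the 32851 promoters of the same length. The 10 bases around it in Vps16, GTCACGTGAC, were also present in Vps33a and Vps26a and in 0.24% of promoters. This longer palindrome was picked after the sequences were seen. The cyclic AMP response element TGACGTCA, also a palindrome, was in 0 of the 7 members and in 1.55% of promoters. A palindrome reads the same on both strands, so each search covered both. In the lines below, capitals mark CACGTG and lower case its flanks, and Vps29 held no match in its 250 bases.
Vps16: aggcggcctcgtCACGTGaccccgaagggc
Vps33a: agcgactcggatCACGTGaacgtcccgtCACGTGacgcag
Vps26a: cgcacggctcgtCACGTGacaactagctct
Vps29: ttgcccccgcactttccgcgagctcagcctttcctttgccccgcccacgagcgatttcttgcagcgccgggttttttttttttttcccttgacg
These are chr2:130424290-130424319 on the plus strand for Vps16, chr5:123573016-123573055 on the minus strand for Vps33a, chr10:62486970-62486999 on the minus strand for Vps26a and chr5:122354234-122354327 on the plus strand for Vps29. The nearest match began 18 bases before the start in Vps16, 12 bases in Vps33a and 182 bases at the first of 2 RefSeq starts of Vps26a. The window of the second Vps26a start held 2 further matches, 175 and 151 bases before it, which are not printed. The 94 bases of Vps29 end at its RefSeq start and begin just past Rad9b, a gene transcribed in the opposite direction. The members with the motif included the most abundant gene of both complexes (Vps26a) and one of the least abundant (Vps33a).

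Vps39, the HOPS subunit that in yeast binds the Rab7 homolog on the vacuole, differed most between the libraries. Its value was 33.5 in MiwiR371W, 5.40 in MiwiΔIns and 16.2 in wild type. MiwiR371W was thus the highest and MiwiΔIns the lowest of the 3 libraries, with wild type between them. The log2 ratio, computed throughout on value + 1, was 1.0 for MiwiR371W over wild type, −1.43 for MiwiΔIns over wild type and 2.43 for MiwiR371W over MiwiΔIns. The ratio to wild type was close to 2-fold in MiwiR371W, so it fell under 2-fold on the log2 scale with median scaling (0.94), upper quartile scaling (0.98) and a pseudocount of 5 (0.86). In bulk libraries, fewer cells that express a gene and less RNA per cell cannot be told apart.

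The size rule used for calls asked for a difference of at least 2-fold on the log2(value + 1) scale and a value of at least 5 in the higher library. Vps39 passed it in all 3 comparisons. By this measure its MiwiR371W over MiwiΔIns ratio ranked 5 from the top of 8744 genes, its MiwiΔIns over wild type ratio ranked 32 from the bottom of 8550, and its MiwiR371W over wild type ratio ranked 123 from the top of 8719. These ranks use the values for which the gene was picked and are given as a description. The 3 comparisons share libraries in pairs, and both comparisons with wild type use the same wild-type library.

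The depth behind Vps39 was estimated from the deposited values. At the estimated worth of 1 fragment, its 2 coding transcripts (4339 and 4384 nt) correspond to about 1470 fragments in MiwiR371W, 322 in MiwiΔIns and 883 in wild type with the longer transcript. Counting error alone then gave the log2 ratios an SD of 0.06 to 0.09, which leaves out differences between animals, sorts and library preparations. Vps39 (ENSMUSG00000027291.9) lies on GRCm38 chromosome 2, 120316461 to 120353137, on the minus strand. Its exons overlap no other annotated gene, and no other gene's transcripts matched it at 95% identity over 100 nt. GENCODE M21 lists 10 transcripts for it, from 200 to 4384 nt, which the gene-level value does not separate.

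**Figure D1:**
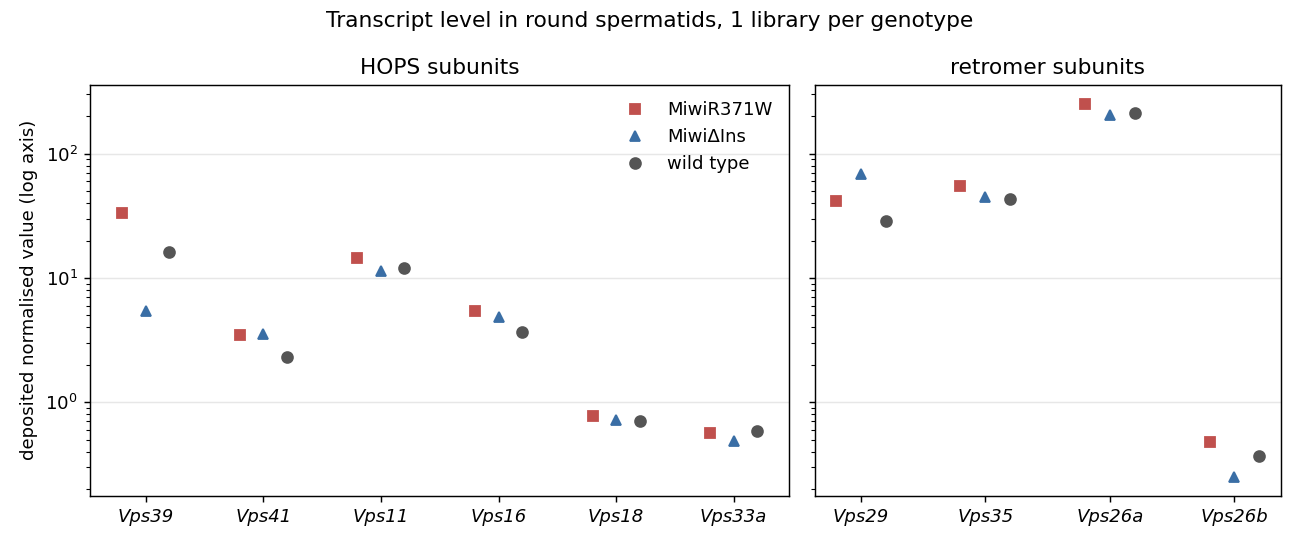
Deposited normalised value (log axis) of each HOPS subunit (left) and retromer subunit (right) in the MiwiR371W (squares), MiwiΔIns (triangles) and wild-type (circles) libraries, 1 library each. Vps39 spans 5.40 to 33.5 and Vps29 28.9 to 68.5, while Vps11, Vps35 and Vps26a lie close together across libraries.

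Vps41, the other HOPS-specific subunit, was at 3.5 in MiwiR371W, 3.52 in MiwiΔIns and 2.30 in wild type. Both mutant libraries were above wild type (log2 0.45 each, and 0.61 each with no pseudocount) and nearly equal to each other (log2 −0.01). The wild-type value rested on about 89 fragments, and the counting SD of the ratios to wild type was 0.19 to 0.21. Vps41 thus did not share the order of the libraries seen for Vps39.

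Among the core subunits, Vps11 was the most abundant, at 14.5 in MiwiR371W, 11.3 in MiwiΔIns and 11.98 in wild type. Vps16, which holds the SM protein Vps33a in the complex, was at 5.44 in MiwiR371W, 4.89 in MiwiΔIns and 3.64 in wild type. Its ratio to wild type was 0.47 on the log2 scale in MiwiR371W and 0.34 in MiwiΔIns, and its exons overlap those of Pced1a on the opposite strand by 109 nt. Neither gene passed the size rule in any comparison.

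Vps18, a core subunit with a RING domain, was at 0.77 in MiwiR371W, 0.72 in MiwiΔIns and 0.70 in wild type. Vps33a, the Sec1/Munc18 protein that templates SNARE assembly, was at 0.57 in MiwiR371W, 0.49 in MiwiΔIns and 0.59 in wild type. These low values correspond to about 24 to 39 fragments per library, and their log2 ratios with no pseudocount, between −0.27 and 0.22, were smaller than their counting SDs of 0.34 to 0.40. A difference was not detectable at this depth.

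Across the 5 HOPS partners of Vps39, the log2 ratio ran from −0.02 to 0.47 in MiwiR371W over wild type, with a median of 0.25 and 4 positive. In MiwiΔIns over wild type it ran from −0.09 to 0.45, with a median of 0.02 and 3 positive. Between MiwiR371W and MiwiΔIns it ran from −0.01 to 0.33, with a median of 0.08 and 4 positive. The pseudocount narrows these ranges for low genes. With no pseudocount they were −0.05 to 0.61, −0.27 to 0.61 and −0.01 to 0.35 in the same order of comparisons. The signs of ratios near 0 depend on the processing, as with Vps18 and Vps11 in MiwiΔIns over wild type. Vps39 therefore lay below all 5 partners in MiwiΔIns and above all 5 in MiwiR371W, which is the pattern for which it was picked.

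**Figure D2:**
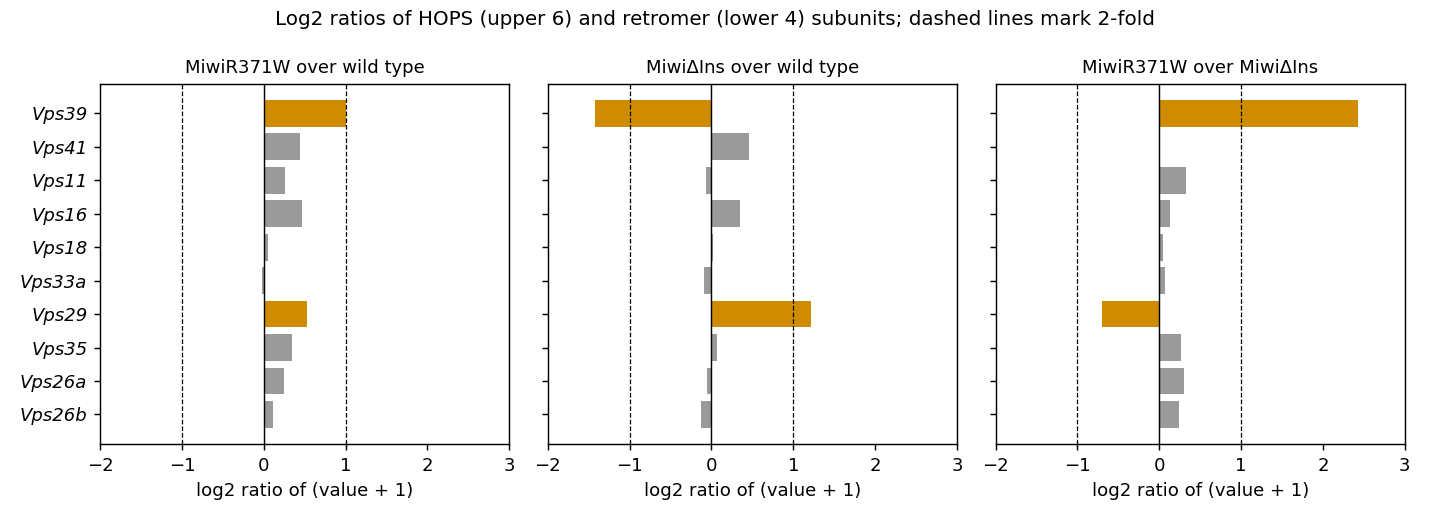
Log2 ratio of (value + 1) for each subunit in MiwiR371W over wild type, MiwiΔIns over wild type and MiwiR371W over MiwiΔIns, with Vps39 and Vps29 in orange, their partners in grey and dashed lines at 2-fold. Vps39 reaches 1.0, −1.43 and 2.43 and Vps29 0.52, 1.22 and −0.70, while the partners stay between −0.13 and 0.47. The pseudocount of 1 narrows the ratios of low partners. With no pseudocount Vps26b ran from −0.57 to 0.94 and Vps41 reached 0.61.

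Ratios within a library do not depend on how the libraries were scaled to each other. Vps39 stood at 9.58 times the median of its 5 partners in MiwiR371W, 1.53 times in MiwiΔIns and 7.05 times in wild type. It made up 57.5% of the summed HOPS value in MiwiR371W, 20.5% in MiwiΔIns and 45.8% in wild type. Without Vps39 the sums were 24.8 in MiwiR371W, 20.96 in MiwiΔIns and 19.2 in wild type.

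The order of HOPS transcript levels was the same in MiwiR371W and wild type, with Vps39 first, followed by Vps11, Vps16, Vps41, Vps18 and Vps33a. In MiwiΔIns Vps11 came first and Vps39 second, so these 2 genes changed places. There the gap between Vps39 and Vps16, 0.14 on the log2 scale of the values, was about as large as its counting SD of 0.13. Vps18 and Vps33a differed by less than 2 counting SDs in every library. All other neighbours in the order differed by over 3 counting SDs computed for the longest coding transcripts. Computed for the shortest, the gap between Vps16 and Vps41 was 2.32 counting SDs in MiwiR371W, 1.98 in MiwiΔIns and 2.25 in wild type, and that between Vps39 and Vps11 was 2.45 in wild type.

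**Figure D3:**
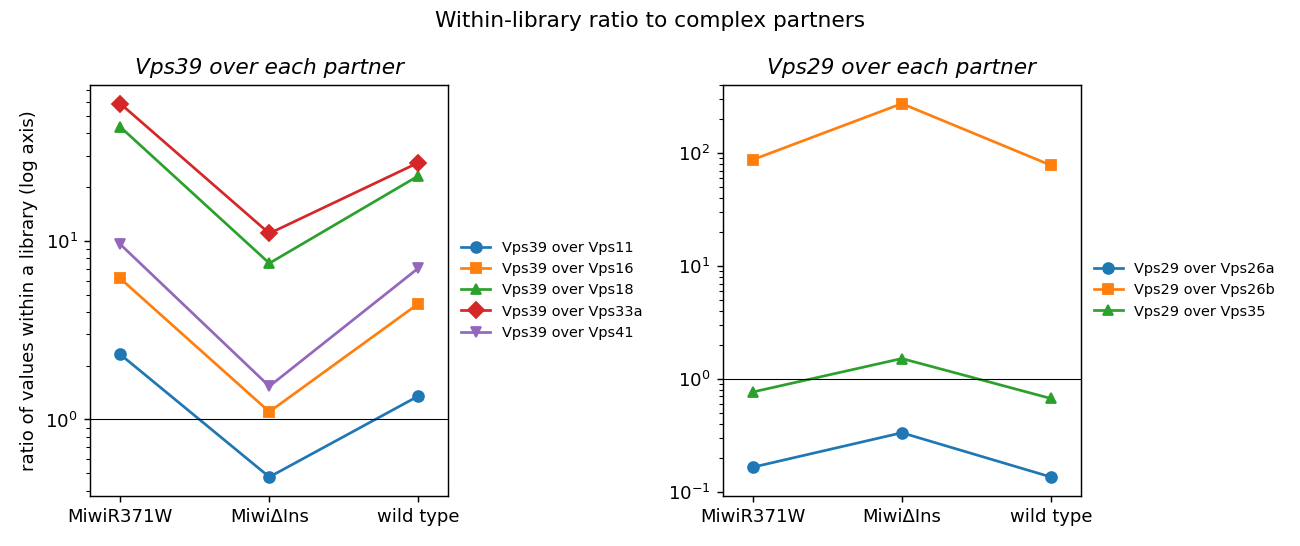
Value of Vps39 (left) and Vps29 (right) divided by that of each complex partner in the same library, on log axes, with libraries in the order MiwiR371W, MiwiΔIns and wild type and lines joining the same partner. Each Vps39 ratio is lowest in MiwiΔIns and each Vps29 ratio is highest there.

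Vps29, the retromer subunit with a metallophosphoesterase fold that binds the far end of Vps35, showed another order of the libraries. Its value was 41.9 in MiwiR371W, 68.5 in MiwiΔIns and 28.9 in wild type. MiwiΔIns was the highest, wild type the lowest, and MiwiR371W lay between them. The log2 ratio was 0.52 for MiwiR371W over wild type, 1.22 for MiwiΔIns over wild type and −0.70 for MiwiR371W over MiwiΔIns. The size rule was passed in MiwiΔIns over wild type alone, where the ratio ranked 57 from the top of 8550 genes. With the trend on GC content and transcript length removed it was 0.99, just under 2-fold.

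The depth behind Vps29 depends on which transcript was made. Its 5 coding transcripts in GENCODE M21 run from 407 to 2716 nt, and the gene's 9 transcripts reach 3364 nt. The values correspond to about 1079 fragments in MiwiR371W, 2417 in MiwiΔIns and 930 in wild type for the longest coding form, but to 26 in MiwiR371W, 107 in MiwiΔIns and 41 in wild type for the shortest. The counting SD of the MiwiΔIns over wild type ratio is 0.06 with the longest form and 0.27 with the shortest. For the shortest form it is 0.362 for MiwiR371W over wild type, where the log2 ratio with no pseudocount was 0.54. For MiwiR371W over MiwiΔIns it is 0.315, beside a ratio of −0.71. The place of MiwiR371W between the other libraries is thus not secure for that form. Numbers for the shortest form depend strongly on the length subtracted first, 350 nt in MiwiR371W and 300 nt in the other libraries. Vps29 (ENSMUSG00000029462.12) lies on GRCm38 chromosome 5, 122354369 to 122364984, on the plus strand, and its exons overlap Fam216a on the opposite strand by 340 of 6148 nt. Fam216a was at 110.5 in MiwiR371W, 104 in MiwiΔIns and 98.8 in wild type, with log2 ratios to wild type of 0.16 in MiwiR371W and 0.08 in MiwiΔIns. It was higher than Vps29 in every library, and whether reads of the shared stretch were divided by strand is not given in the sources used here. A stretch of 111 nt in a Vps29 transcript matched Zbtb26 at 95.5% identity.

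The retromer backbone Vps35 was at 54.7 in MiwiR371W, 45.2 in MiwiΔIns and 43.0 in wild type, with log2 ratios to wild type of 0.34 in MiwiR371W and 0.07 in MiwiΔIns. The MiwiΔIns ratio turned negative under some alternatives, down to −0.22. Its exons overlap Orc6 on the opposite strand by 171 nt. Vps26a was the most abundant of all 10 members, at 253 in MiwiR371W, 205 in MiwiΔIns and 213 in wild type, with log2 ratios to wild type of 0.25 in MiwiR371W and −0.05 in MiwiΔIns. Its value was at percentile 97.4 of all genes in MiwiR371W, 95.7 in MiwiΔIns and 96.3 in wild type. Its paralog Vps26b was at 0.48 in MiwiR371W, 0.25 in MiwiΔIns and 0.37 in wild type, on 12 to 17 fragments. Its log2 ratios with no pseudocount (0.38 for MiwiR371W over wild type, −0.57 for MiwiΔIns over wild type and 0.94 for MiwiR371W over MiwiΔIns) were all under 2 counting SDs of 0.50 to 0.55, so no difference was detectable at this depth. Vps26a accounted for nearly all Vps26 transcript.

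Across the 3 retromer partners of Vps29, the log2 ratio ran from 0.11 to 0.34 in MiwiR371W over wild type, from −0.13 to 0.07 in MiwiΔIns over wild type and from 0.24 to 0.30 in MiwiR371W over MiwiΔIns. The pseudocount narrows these ranges through the low gene Vps26b. With no pseudocount they were 0.25 to 0.38, −0.57 to 0.07 and 0.28 to 0.94 in the same order of comparisons. Vps29 stood at 0.77 times the value of Vps35, the median partner, in MiwiR371W, 1.52 times in MiwiΔIns and 0.67 times in wild type. It made up 11.97% of the summed retromer value in MiwiR371W, 21.5% in MiwiΔIns and 10.1% in wild type. The order of levels was Vps26a, Vps35, Vps29 and Vps26b in MiwiR371W and wild type, whereas in MiwiΔIns Vps29 was above Vps35. In each library every gap in this order was over 6 counting SDs, computed for the longest coding transcripts. With the shortest, the gap between Vps35 and Vps29 was 1.34 counting SDs in MiwiR371W, 4.2 in MiwiΔIns and 2.52 in wild type.

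Of the 10 members, 6 reached the minimum value of 5 in one of the libraries compared for MiwiR371W over wild type, 5 for MiwiΔIns over wild type and 6 for MiwiR371W over MiwiΔIns, and only those could pass the size rule. In MiwiR371W over wild type 1 member passed (Vps39), beside 3.3% of 8719 genes in either direction (1.46% higher and 1.85% lower). In MiwiΔIns over wild type 2 members passed (Vps39 lower, Vps29 higher), beside 2.06% of 8550 genes in either direction (1.3% higher and 0.76% lower). In MiwiR371W over MiwiΔIns 1 member passed (Vps39), beside 4.48% of 8744 genes in either direction (1.27% higher and 3.21% lower). Since the members were picked for these differences, nothing is read from the counts. The calls over all genes were 127 higher and 161 lower for MiwiR371W over wild type, and 155 and 128 when mitochondrial and the 50 most abundant genes were left out. For MiwiR371W over MiwiΔIns they were 111 higher and 281 lower, 172 and 187 with equal sums, and 163 and 193 when those genes were left out. The median log2 ratio over the 10 members was 0.30 for MiwiR371W over wild type, −0.02 for MiwiΔIns over wild type and 0.19 for MiwiR371W over MiwiΔIns. Over all genes that reached the minimum it was 0.03, 0.04 and 0.01 in the same comparisons. These medians cover unlike sets, because the 10 members include genes below the minimum and the genes picked for their difference.

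**Figure D4:**
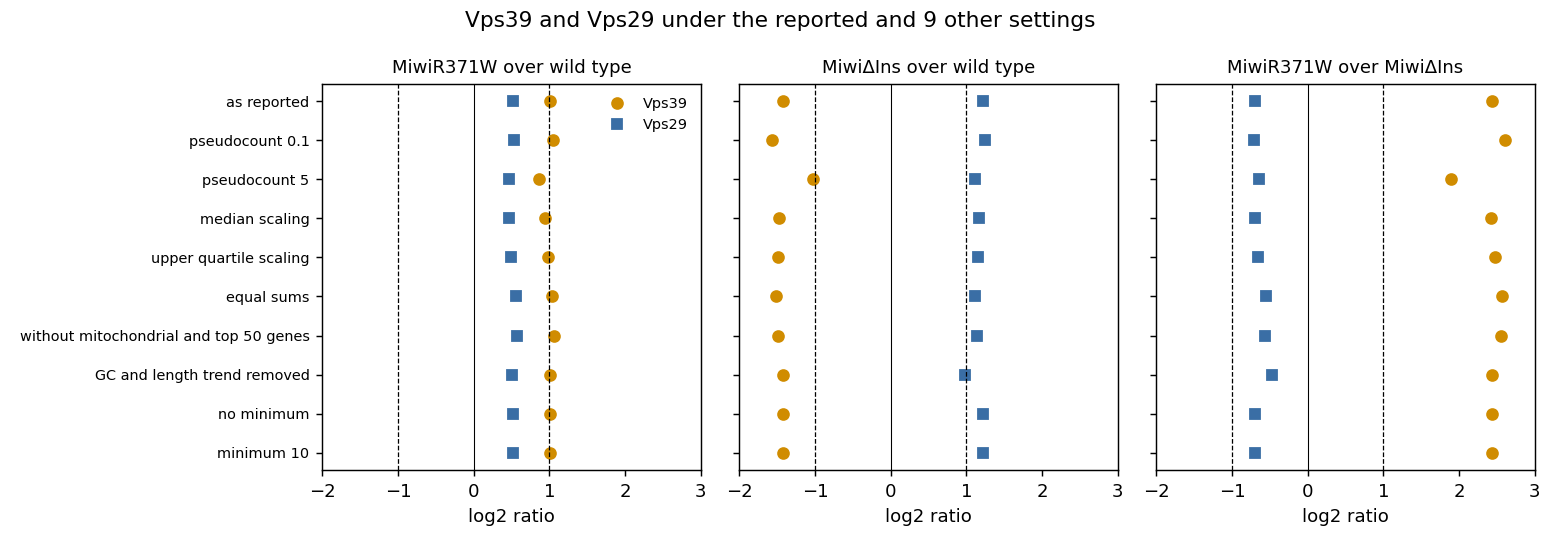
Log2 ratio of Vps39 (circles) and Vps29 (squares) in MiwiR371W over wild type, MiwiΔIns over wild type and MiwiR371W over MiwiΔIns, as reported and under 9 other settings, with dashed lines at 2-fold. Vps39 stays between 1.89 and 2.61 in the last comparison and between −1.57 and −1.03 in MiwiΔIns over wild type, and lies on either side of 1 in MiwiR371W over wild type.

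Genes next to Vps39 and Vps29 were looked at after the values were known. Tmem87a, which lies 2175 nt from Vps39 on the same strand, was at 4.17 in MiwiR371W, 3.81 in MiwiΔIns and 2.59 in wild type. Pla2g4f, on the other side at 2296 nt, was at 0.20 in MiwiR371W, 0.27 in MiwiΔIns and 0.16 in wild type. Tmem87a was not lowest in MiwiΔIns, as Vps39 was, and the values of Pla2g4f are too low for their order to be read. Rad9b, whose start lies 136 nt from that of Vps29, was at 7.24 in MiwiR371W, 5.91 in MiwiΔIns and 6.93 in wild type, so it was lowest where Vps29 was highest. This difference was small, with a log2 ratio of −0.20 for Rad9b in MiwiΔIns over wild type. Whether neighbouring genes share control was not tested.

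The genes most like Vps39 were sought among 7140 protein-coding genes by the distance between their pairs of log2 ratios to wild type, over the 3 libraries. The nearest was the unconventional myosin gene Myo18a, at 30.1 in MiwiR371W, 5.45 in MiwiΔIns and 14.2 in wild type (distance 0.19). Next came Ap1g2, a gamma subunit of the AP-1 clathrin adaptor, at 9.64 in MiwiR371W, 1.29 in MiwiΔIns and 3.77 in wild type (distance 0.40), and Cdk2ap1, at 17.3 in MiwiR371W, 4.71 in MiwiΔIns and 11.7 in wild type (distance 0.55). The nearest to Vps29 was the core spliceosomal gene Snrpd1, at 20.8 in MiwiR371W, 31.2 in MiwiΔIns and 13.97 in wild type (distance 0.12). At a distance of 0.15 followed the ribosomal protein gene Rpl10, at 3.0 in MiwiR371W, 6.45 in MiwiΔIns and 2.06 in wild type. Stam, also at 0.15, was at 10.1 in MiwiR371W, 15.1 in MiwiΔIns and 6.70 in wild type. Stam encodes a subunit of the ESCRT machinery that sorts ubiquitinated cargo on endosomes. With 3 libraries such likeness is a description only.

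Other genes of the endosomal and lysosomal pathway were read from 9 lists with 117 of 124 genes measured. In MiwiR371W over wild type 1 gene passed the size rule as higher and 0 as lower, of 71 that reached the minimum value. In MiwiΔIns over wild type it was 1 higher and 0 lower of 65, and in MiwiR371W over MiwiΔIns 1 higher and 0 lower of 70. Over all genes the shares past the rule in either direction were 3.3%, 2.06% and 4.48% in the same comparisons. Counts this small cannot be set apart from these shares. The list medians lay between 0.0 and 0.20 on the log2 scale for MiwiR371W over wild type, between −0.04 and 0.13 for MiwiΔIns over wild type and between −0.09 and 0.13 for MiwiR371W over MiwiΔIns.

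The genes that passed were Manba and Stam. Manba, the lysosomal beta-mannosidase, was at 10.3 in MiwiR371W, 4.33 in MiwiΔIns and 4.08 in wild type, with log2 ratios of 1.15 for MiwiR371W over wild type and 1.08 over MiwiΔIns. It was the 1 gene past the rule of 22 measured lysosomal membrane proteins and hydrolases, of which 7 reached the minimum value in these comparisons. Stam had a log2 ratio of 1.07 in MiwiΔIns over wild type and was the 1 gene of 25 measured ESCRT subunits past the rule. Of the 25, 22 reached the minimum value. Manba lost the call with a pseudocount of 5, and Stam lost it there, with equal sums, after removal of the GC and length trend, and when mitochondrial and the 50 most abundant genes were left out.

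**Figure D5:**
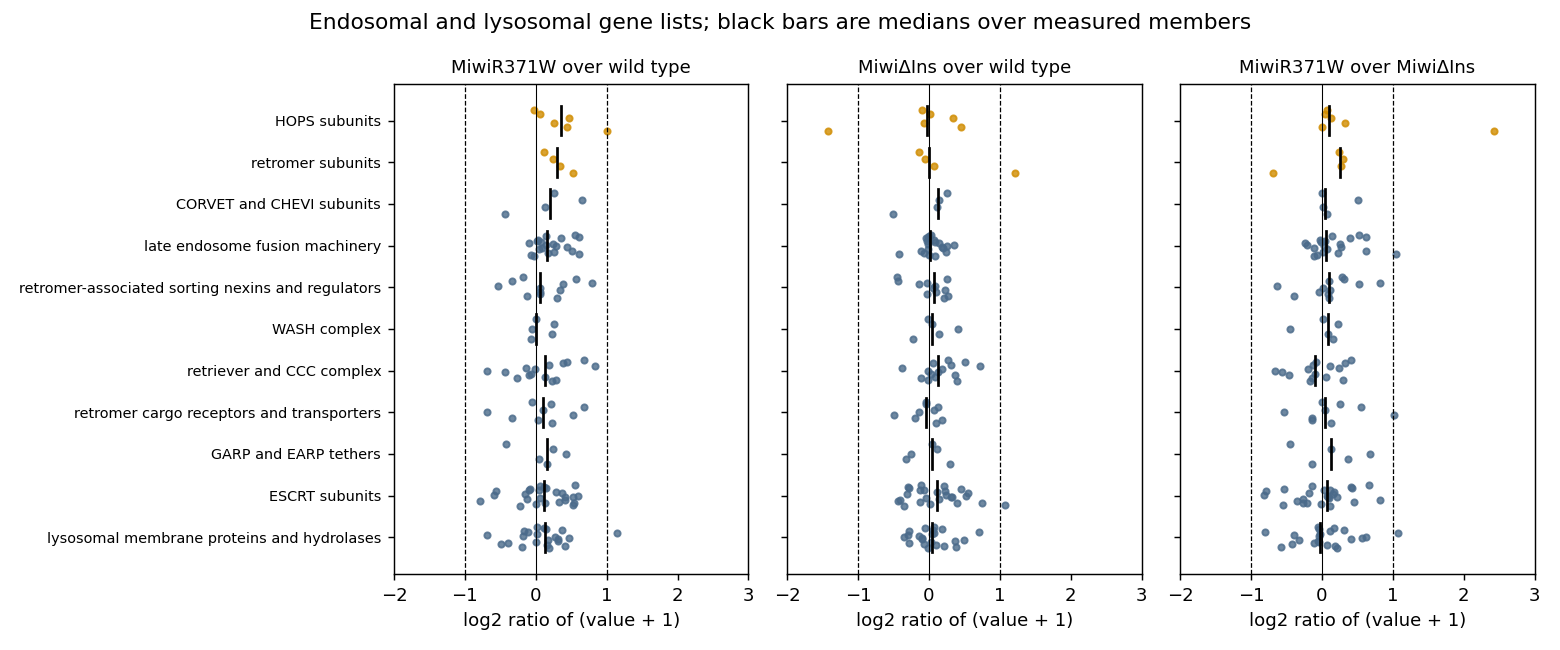
Log2 ratio of (value + 1) of each measured gene in the HOPS and retromer sets (orange) and 9 lists of endosomal and lysosomal genes (blue) in MiwiR371W over wild type, MiwiΔIns over wild type and MiwiR371W over MiwiΔIns. Black bars mark list medians, which stay between −0.09 and 0.20 in the 9 blue lists.

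Among the other tethers, 0 of 4 measured CORVET and CHEVI subunits passed the rule in the 3 comparisons. Only 1 of the 4 reached the minimum value and could pass. Vipas39, the Vps33b partner, was at 12.54 in MiwiR371W, 12.55 in MiwiΔIns and 10.3 in wild type. Vps8, the CORVET-specific subunit, was at 2.83 in MiwiR371W, 2.65 in MiwiΔIns and 4.17 in wild type. Of 5 GARP and EARP tether subunits, which receive endosome-derived vesicles at the Golgi or recycling endosome, 0 passed. Of these subunits, 3 to 4 reached the minimum value, depending on the comparison. Vps52 was at 50.2 in MiwiR371W, 38.7 in MiwiΔIns and 48.6 in wild type. Ccdc132, the EARP subunit now named Vps50, was at 15.6 in MiwiR371W, 21.7 in MiwiΔIns and 21.1 in wild type.

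The machinery that works with HOPS had 20 of 22 genes measured and 0 past the rule in the 3 comparisons. Of the 20, 13 to 14 reached the minimum value, depending on the comparison. Arl8b, the lysosomal GTPase that recruits HOPS through Vps41, was at 75.5 in MiwiR371W, 62.6 in MiwiΔIns and 55.2 in wild type. Plekhm2, an Arl8 effector that links lysosomes to kinesin, was at 68.5 in MiwiR371W, 65.4 in MiwiΔIns and 66.0 in wild type. Mon1b, also of this list, was at 4.59 in MiwiR371W, 1.72 in MiwiΔIns and 2.65 in wild type, the order of libraries seen for Vps39. That order is not particular to these genes. It was also that of Plekhm2 and further genes of this list, and of the members Vps11, Vps26a and Vps26b. The log2 ratio of Mon1b was 1.04 for MiwiR371W over MiwiΔIns, and only its values below the minimum kept it from passing.

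The genes that work with retromer likewise had 0 past the rule. They were 12 measured sorting nexins and regulators, 5 WASH subunits, 15 retriever and CCC genes and 9 cargo receptors and transporters. The minimum value was reached by 8 to 10, 2, 7 to 8 and 3 of them, in the same order, and the others could not pass. Snx3, a sorting nexin that recruits retromer to endosomes, was at 223 in MiwiR371W, 222 in MiwiΔIns and 213 in wild type. The membrane-remodelling ATPase gene Ehd1 was at 301 in MiwiR371W, 248 in MiwiΔIns and 339 in wild type. Sort1, which encodes the Vps10 domain receptor sortilin, was at 36.7 in MiwiR371W, 40.8 in MiwiΔIns and 46.7 in wild type, and its relative Sorcs2 was at 5.90 in MiwiR371W, 9.02 in MiwiΔIns and 10.1 in wild type. Sorl1, of the same cargo list, was at 1.6 in MiwiR371W, 0.29 in MiwiΔIns and 0.81 in wild type, below the minimum value. Its log2 ratio was 1.01 for MiwiR371W over MiwiΔIns. On the log2(value + 1) scale no gene of the 9 lists was 2-fold lower in that comparison. The pseudocount decides this for genes near the floor. The lysosomal gene Neu1 was at 0.09 in MiwiR371W, 0.91 in MiwiΔIns and 0.17 in wild type, with a log2 ratio of −0.81 for MiwiR371W over MiwiΔIns. Commd3, of the CCC complex, was at 42.0 in MiwiR371W, 67.2 in MiwiΔIns and 68.1 in wild type, with a log2 ratio of −0.68 to wild type in MiwiR371W. Its complex partner Commd1 was at 67.7 in MiwiR371W, 72.4 in MiwiΔIns and 70.7 in wild type. In the WASH complex, which forms actin patches on endosomes, Ccdc53 was at 36.3 in MiwiR371W, 50.2 in MiwiΔIns and 37.6 in wild type, and Wash was at 11.2 in MiwiR371W, 9.91 in MiwiΔIns and 11.8 in wild type.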

How the data were processed

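The authors deposited 1 table with a signal per gene and library, normalised for transcript length and library size. Whether it is FPKM or TPM is not given in the sources used here. The submitters' processing notes name RSEM, STAR, Trim Galore 0.5.0 and mm10 (GRCm38). Sums of the deposited signal were 630809 in MiwiR371W, 697804 in MiwiΔIns and 647897 in wild type. The lowest value among the genes read was 0.01, so genes at 0 are not covered here.

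The members and lists were chosen with earlier results of these data known. Log2 ratios used a pseudocount of 1, which understates changes of low genes. Named genes were the members, genes whose exons overlap Vps39 or Vps29, up to 2 genes each way past the size rule per list and comparison (or the 2 most abundant where none passed), and the 3 genes nearest in pattern to Vps39 and to Vps29. Cell type markers chosen by it are given mostly as sums. The neighbours Tmem87a, Pla2g4f and Rad9b, the markers Prm2, Tnp1 and Actg2, and the listed genes Mon1b, Sorl1 and Neu1 were named after their values were seen. Positions, transcript lengths and GC came from GENCODE M21 (GRCm38), matched for 98.5% of genes. Its gene versions are later than those in the table, so the authors' transcript set may differ.

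Fragment numbers rest on steps in low values of 988 genes that have 1 transcript each and are longer than 2500 nt. The step was 0.092 value × kb in MiwiR371W, 0.0685 in MiwiΔIns and 0.075 in wild type. A length fitted with the step was subtracted from each transcript, 350 nt in MiwiR371W and 300 nt in MiwiΔIns and wild type. The 350 nt was the longest length tried, and counting SDs for the shortest transcripts depend on this subtraction. Values lay on average 0.124 steps from a whole number in MiwiR371W, 0.149 in MiwiΔIns and 0.131 in wild type. The expected distance is 0.25 for a fixed step size where there are no steps. The distances given are the smallest over many step sizes and lengths tried, so they would tend to lie below 0.25 in any case. Steps, ratios and trend removal were tested on simulated data. The trend was a cubic fit on GC and log2 length. Sequence copies were searched with blastn 2.17.0; other steps used Python 3.11.15, numpy 2.4.6 and pandas 2.3.3.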

Additional observations from a re-analysis of the deposited data

How the results depend on the processing

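Over 9 alternatives, the log2 ratios of Vps39 and Vps29 kept their sign in all 3 comparisons. The alternatives with no minimum and with a minimum of 10 change only the calls, so they could not alter a ratio. In MiwiR371W over wild type, Vps39 fell under 2-fold with a pseudocount of 5 (0.86), median scaling (0.94) and upper quartile scaling (0.98), leaving 0 members past the size rule in place of 1. With the GC and length trend removed, Vps29 was at 0.99 in MiwiΔIns over wild type, leaving 1 member in place of 2. Equal sums moved the median of all genes in MiwiR371W over MiwiΔIns to 0.15, and leaving out mitochondrial and top 50 genes moved it to 0.14. Counts over all genes changed by over 1.5 times as follows. With a pseudocount of 5 they were 30 higher and 54 lower in MiwiR371W over wild type (127 and 161 as reported), 33 and 17 in MiwiΔIns over wild type (111 and 65), and 31 and 143 in MiwiR371W over MiwiΔIns (111 and 281). With no minimum they were 257 and 243 in MiwiR371W over wild type, 176 and 126 in MiwiΔIns over wild type, and 248 higher in MiwiR371W over MiwiΔIns. With a minimum of 10 they were 60 higher in MiwiR371W over wild type, 64 higher and 27 lower in MiwiΔIns over wild type, and 56 higher in MiwiR371W over MiwiΔIns. Equal sums gave 172 and 187 in MiwiR371W over MiwiΔIns, and the trend removal 71 higher in MiwiΔIns over wild type. The cause was not tested.

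The level of Vps39 relative to its partners depends on the partner, while the order of the libraries did not change over the partners or their mean. In MiwiR371W it was 6.77 over the mean of the partners, 2.32 over Vps11, 6.16 over Vps16, 43.5 over Vps18 and 58.8 over Vps33a. In MiwiΔIns it was 0.476 over Vps11, 1.10 over Vps16, 7.50 over Vps18 and 11.02 over Vps33a. In wild type it was 4.22 over the mean, 1.35 over Vps11, 4.45 over Vps16, 23.2 over Vps18 and 27.5 over Vps33a. The ratios to Vps41, the median partner, are those given above. Vps29 over the mean of its partners was 0.408 in MiwiR371W, 0.821 in MiwiΔIns and 0.338 in wild type. Over Vps26a it was 0.166 in MiwiR371W, 0.334 in MiwiΔIns and 0.136 in wild type, and over Vps26b 87.4 in MiwiR371W, 274 in MiwiΔIns and 78.0 in wild type.

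No paired analysis was possible because each genotype has 1 library and no replicate numbers. Depth limits Vps18, Vps33a and Vps26b, which rest on fewer than 40 estimated fragments per library.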
